A study of Mus musculus with 4 samples.

Results

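The genes described here encode the proximal T cell receptor signalling machinery: the invariant chains of the receptor, the kinases and adaptors that act at the membrane, the enzymes they switch on and the molecules that restrain them. They were taken by name as a list of 38 genes out of 50600 in the count tables, by a rule that uses no measured value. RNA levels were measured by RNA sequencing in mouse T-helper 17 (Th17) primary cells of strain C57BL/6NJ. There were 4 libraries, numbered as biological replicates 1 to 4 of a single group, with no other condition to compare. The assay title named total RNA, whereas the linked library protocol was named for poly(A)+ RNA. Sex was not collected, age was unknown, and no genetic change, treatment or time point was named in the labels, although the output names inside the tables carried a tag of 2 hours with no stated starting event. The libraries came from different biosamples with 1 shared donor identifier. Nothing stated that they were separate animals or cultures, so SDs and p-values describe only the spread between these libraries, which may be technical.

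The T cell receptor has no enzymatic activity of its own. When it binds its ligand, the Src family kinase Lck phosphorylates tyrosine motifs in the CD3 and zeta chains, Zap70 docks there and phosphorylates the scaffolds Lat and Lcp2, and these gather Plcg1, Vav1 and Ras activators. Phosphatases, diacylglycerol kinases and inhibitory adaptors set the threshold of the cascade, and in helper T cells its strength is known to shape which cytokines the cells make.

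Levels are given in TPM, the count of a gene divided by its exon length and scaled to the same total in every library, in the order of replicates 1, 2, 3 and 4, followed in parentheses by the mean ± SD over n = 4 libraries. The libraries held between 25847970 and 40652146 counted fragments, and the 38 genes took 1.57 ± 0.0243% of them, from 29 to 142791 fragments per gene and library. The T cell label held. All 6 T cell markers were above 1 TPM, but Cd3e, Cd3d, Cd3g and Cd247 among them belong to the 38 genes. The other T cell markers, Trac and Cd4, averaged 3565 ± 251 and 364 ± 35.1 TPM. The B cell marker Ms4a1, the NK cell markers Ncr1 and Klrb1c, the epithelial marker Krt8 and all 5 erythroid and platelet markers were at 0. Summed marker levels were 0.392 to 1.9 TPM for 6 B cell genes, 5.7 to 18.1 TPM for 7 myeloid and dendritic genes, 3.19 to 5.79 TPM for 5 NK genes and 7.19 to 10.1 TPM for 5 stromal and epithelial genes, of which Epcam averaged 6.71 ± 1.27 TPM and Col1a1 1.35 ± 0.296 TPM. All 8 Th17 regulators reached 1 TPM. Of 7 Th17 effector and receptor genes, 3 reached 1 TPM, with Il17a at 5.65 ± 1.2 TPM, whereas Il23r averaged 0.132 TPM and Ccr6 0.207 TPM. In bulk RNA, fewer cells of a type and less RNA per cell cannot be told apart.

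All 38 genes averaged at least 1 TPM, as did 45.2% of the 21764 protein coding genes, and 37 averaged at least 10 TPM and 26 at least 100 TPM. Their median mean level was 181 TPM, against 0.279 TPM over protein coding genes, and their median log2(TPM + 1) was 7.50 ± 0.13, against 0.34 over protein coding genes. These genes were listed because T cells are known to use them, so that contrast describes the list. Within the list the highest gene, Cd2, stood 475-fold above the lowest, Lime1, when the Lime1 count was divided by all its exon bases. Only 172 of these bases belong to Lime1 alone. With that length Lime1 averaged 44.4 TPM and was not the lowest. These bases are an intron of 2 protein coding Lime1 transcripts, so neither value gives the level of those transcripts. The summed level of the 38 genes lay between 11234 and 11507 TPM, 11399 ± 125 TPM on average.

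**Figure D1:**
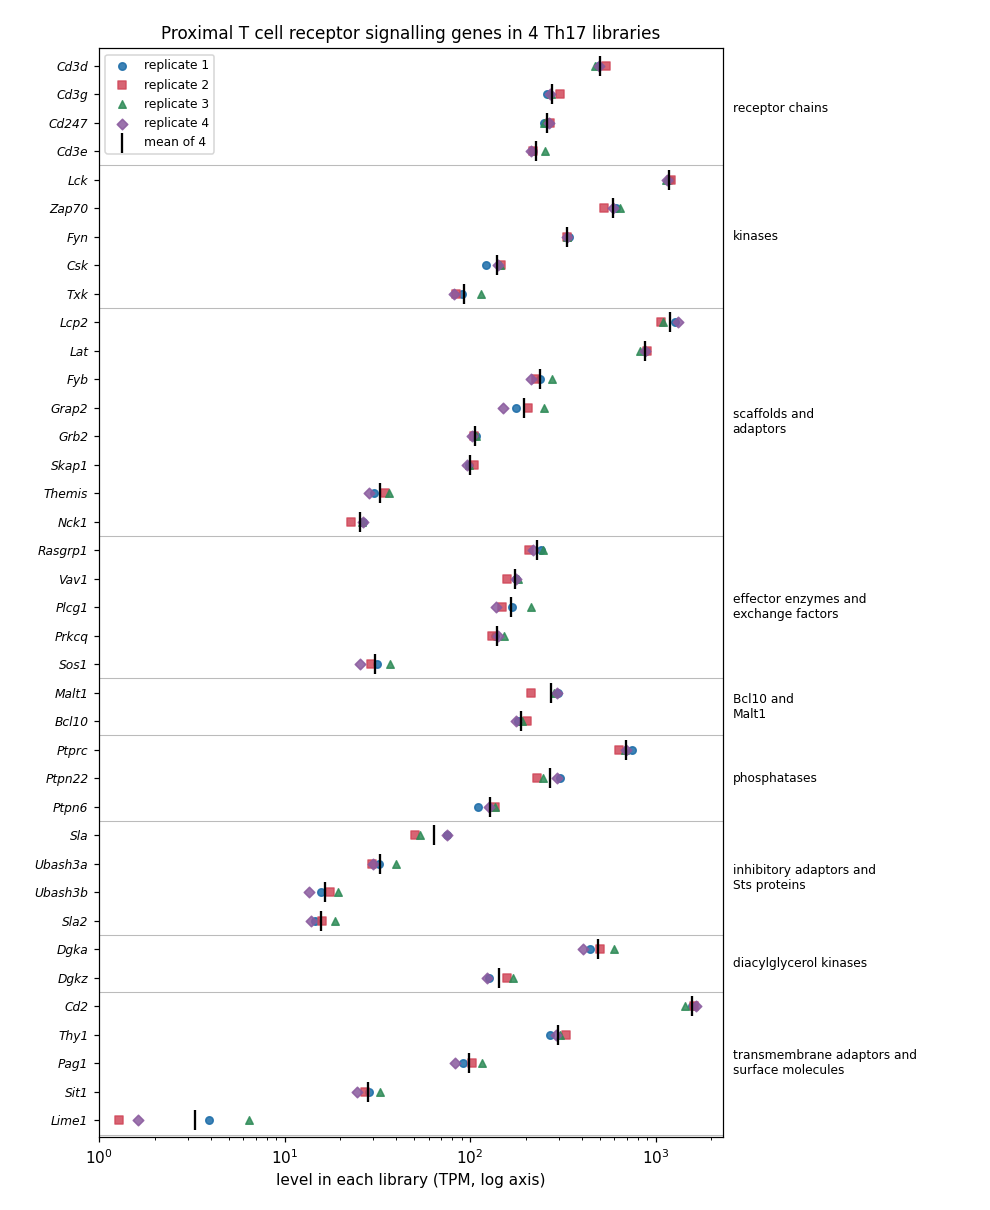
Level of each of the 38 genes (TPM, log axis) in each of the 4 Th17 libraries, grouped by role and ordered by mean within a role; symbols mark the replicates and the black tick the mean. Cd2, Lcp2 and Lck are the highest, and the inhibitory adaptors and Sts proteins lie under 100 TPM. Lime1, with all its exons as length, is the lowest and most spread.

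Ordered by mean level, 10 of the 37 neighbouring pairs had ranges that did not touch over the 4 libraries, and 27 overlapped. Cd2 stood alone at the top, Lcp2 and Lck followed with overlapping ranges, and Lat came next, clear of its neighbours on either side. Ptprc, Zap70, Cd3d and Dgka formed a run of overlapping neighbours above Fyn. From Thy1 down to Ptpn6 no neighbours were separate, so the order of most genes between 298 and 128 TPM was within the spread of the libraries. Sla, between 50.5 and 75.4 TPM, and Lime1, between 1.28 and 6.42 TPM, were each separate from the genes next to them. For Lime1 this was lost with only its own 172 bases as length, at 17.1 to 86 TPM.

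The level of several genes rested on which length was used. Divided by the longest annotated transcript in place of all exons, 7 genes were more than 1.5 times as high: Bcl10 (294 TPM), Fyb (376 TPM), Ptpn22 (536 TPM), Ptprc (1785 TPM), Skap1 (288 TPM), Themis (60.8 TPM) and Txk (156 TPM). By the same change 3 genes were lower by more than 1.5 times: Grap2 (91.2 TPM), Malt1 (175 TPM) and Ubash3a (11.6 TPM). In these 3 the longest transcript is longer than the exons in which fragments were counted, for Malt1 6404 against 5073 bases. Their lower values thus come from division by bases that were not counted. The test of variation between libraries does not use the length.

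Among the receptor chains, Cd3d was the highest. Cd3e pairs with Cd3d and with Cd3g in the assembled receptor, and Cd247 encodes the zeta chain, which carries most of the phosphorylated motifs. Cd3d measured 489, 539, 474 and 493 TPM (499 ± 28). Cd3g measured 259, 305, 272 and 269 TPM (277 ± 20), with replicate 2 the highest. Cd247 measured 249, 270.3, 249.6 and 267 TPM (259 ± 11.4), and its range overlapped that of Cd3g. Cd3e measured 219, 218, 254 and 214 TPM (226 ± 18.8), with replicate 3 above the other libraries. Within every library Cd3e was below Cd3d, with a difference of -1.14 ± 0.17 on the log2(TPM + 1) scale. Fcer1g, a relative of Cd247 that serves Fc receptors on myeloid cells, had 8 fragments over the 4 libraries and averaged 0.233 ± 0.241 TPM.

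The order of the 3 CD3 genes rested on exon length. Their fragment counts, summed over the libraries, were 34883 for Cd3e, 34728 for Cd3d and 34668 for Cd3g, while their exons spanned 4080, 1815 and 3269 bases in that order. Without the division by length the Cd3e minus Cd3d difference turned to 0.03 on the log2 scale, and so did Cd3e minus Cd3g, which was -0.29 ± 0.16 in TPM and 0.02 with the length of the longest transcript. Cd3d exceeded Cd3g in TPM by 0.85 ± 0.05 in all 4 libraries.

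These 3 genes sit together on chromosome 9 within 40056 bases (mm10), Cd3g at chr9:44969572-44980431 on the minus strand, Cd3d at chr9:44981786-44987339 on the plus strand and Cd3e at chr9:44998740-45009627 on the minus strand. The starts of Cd3g and Cd3d lie 1355 bases apart and face away from each other. Cd247 lies on chromosome 1, at chr1:165788681-165877277 on the plus strand. Their promoter windows are shown because the 4 chains form a single complex and are made from separate starts. Each window runs from 250 bases before to 50 bases after the RefSeq start (GRCm38.p6), 5′ to 3′ on the strand of the gene. Capitals mark the core of the ETS family motif, searched as AGGAAG and CGGAAG on both strands, so that CTTCCT is the first of these read on the other strand. The windows are chr9:44980382-44980681 for Cd3g (minus strand), chr9:44981536-44981835 for Cd3d (plus strand), chr9:45009562-45009861 for Cd3e (minus strand) and chr1:165788431-165788730 for Cd247 (plus strand).
Cd3g: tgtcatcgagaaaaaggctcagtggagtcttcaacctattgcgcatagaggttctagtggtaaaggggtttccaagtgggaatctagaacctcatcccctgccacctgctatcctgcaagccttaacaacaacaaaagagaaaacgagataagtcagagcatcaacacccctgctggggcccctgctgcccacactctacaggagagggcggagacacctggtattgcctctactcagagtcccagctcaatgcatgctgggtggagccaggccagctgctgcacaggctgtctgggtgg
Cd3d: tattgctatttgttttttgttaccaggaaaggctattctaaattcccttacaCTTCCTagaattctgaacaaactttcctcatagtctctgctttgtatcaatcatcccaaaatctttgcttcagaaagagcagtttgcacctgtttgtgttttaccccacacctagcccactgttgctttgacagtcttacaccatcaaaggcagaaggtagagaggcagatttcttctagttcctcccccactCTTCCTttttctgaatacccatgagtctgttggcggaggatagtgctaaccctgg
Cd3e: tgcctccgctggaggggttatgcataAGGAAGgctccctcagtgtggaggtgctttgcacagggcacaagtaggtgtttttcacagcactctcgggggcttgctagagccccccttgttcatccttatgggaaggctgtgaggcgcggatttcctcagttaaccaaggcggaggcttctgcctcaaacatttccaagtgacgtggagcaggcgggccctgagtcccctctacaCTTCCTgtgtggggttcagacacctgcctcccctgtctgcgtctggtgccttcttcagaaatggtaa
Cd247: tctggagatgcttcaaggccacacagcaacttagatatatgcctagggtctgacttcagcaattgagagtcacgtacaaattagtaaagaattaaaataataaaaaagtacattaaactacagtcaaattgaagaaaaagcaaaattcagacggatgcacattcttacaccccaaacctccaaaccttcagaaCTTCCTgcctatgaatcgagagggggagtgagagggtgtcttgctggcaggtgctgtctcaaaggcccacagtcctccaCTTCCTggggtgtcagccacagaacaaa
The Cd3d, Cd3e and Cd247 windows each held 2 ETS words and the Cd3g window held none. None of the 4 windows held the TATA box letters TATAAA. The absence of these letters from a window says nothing about the factor itself.

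Over all genes of the list, 32 of 38 had entries in the RefSeq promoter table, 47 windows in all; Pag1, Cd2, Thy1, Malt1, Sla and Skap1 had none. An ETS word occurred in 30 of the 47 windows, 63.8%, and in 46.5% of all 32851 promoter windows of the same length. The RUNX words TGTGGT and TGCGGT occurred in 23.4% of the windows and in 22.4% of all windows. TATAAA occurred in 8.51% and in 13.6% of all, the GC box GGGCGG in 38.3% and in 35.7% of all, and the E-box CAGCTG in 14.9% and in 16.3% of all. Both strands were searched for each motif. These shares were not tested, several windows belong to the same gene, and the median GC content was 56.7% in these windows against 52.7% in all.

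Lck led the kinases. It phosphorylates the receptor chains and then Zap70, and it measured 1201, 1214, 1139 and 1147 TPM (1175 ± 37.8), with little spread. Fyn, the other Src family kinase of the list, measured 343, 332, 331 and 333 TPM (335 ± 5.25), with replicate 1 slightly above the other libraries. Lck exceeded Fyn by 1.81 ± 0.04 on the log2 scale in every library. Zap70, the kinase that binds the phosphorylated chains, measured 610.0, 524, 642 and 591 TPM (592 ± 49.6), lowest in replicate 2. Its relative Syk, which does this work in B cells, averaged 0.0719 ± 0.0458 TPM on 27 fragments over all libraries, and Zap70 exceeded it by 9.11 ± 0.17 on the log2(TPM + 1) scale.

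Txk, a Tec family kinase that acts on Plcg1, measured 91, 84.4, 115 and 81.5 TPM (92.9 ± 15), highest in replicate 3. Csk, which phosphorylates the inhibitory tail of Lck, measured 122, 147, 145 and 141 TPM (139 ± 11.5), with replicate 1 the lowest.

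The scaffolds Lat and Lcp2 were among the highest genes of the list. Lat, the membrane protein on which Zap70 builds the signalling complex, measured 889.9, 896, 825 and 881 TPM (873 ± 32.7). Its counterpart Lat2, known from B and myeloid cells, averaged 3.3 ± 1.24 TPM, a difference of 7.71 ± 0.46 on the log2 scale. Lcp2, which encodes the scaffold SLP-76, measured 1269, 1066, 1094 and 1324 TPM (1189 ± 128), higher in replicates 1 and 4 than in replicates 2 and 3. Blnk, the scaffold of B cells that corresponds to it, had 3 fragments over the 4 libraries, at the limit of detection, and the difference was 10.19 ± 0.17 on the log2(TPM + 1) scale.

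The smaller adaptors covered a wide range. Grap2, also called Gads, joins Lcp2 to Lat and measured 176, 204, 250.2 and 151 TPM (195 ± 42.6), with replicate 3 high and replicate 4 low. Grb2, which brings Sos1 to Lat, was among the steadiest genes, at 107, 105, 108 and 103 TPM (106 ± 2.43), although 12.1% of its words of 31 bases also occur in transcripts of other genes, which makes its count uncertain. Grap2 exceeded Grb2 by 0.85 ± 0.28 on the log2 scale in all 4 libraries, but with the length of the longest transcript the difference was -0.04, because the longest Grap2 transcript (5475 bases) is longer than the exons counted for it (3158 bases). Themis, an adaptor best known from thymocyte selection, measured 30.4, 35, 36.4 and 28.6 TPM (32.6 ± 3.72), and its relative Themis2, known from B cells, averaged 0.356 ± 0.16 TPM. Nck1, an adaptor that links the receptor to actin, measured 26.4, 22.7, 26 and 26.5 TPM (25.4 ± 1.81), with replicate 2 below the rest. It could not be separated from Nck2, at 21.8, 28.1, 26.8 and 18.7 TPM: the difference of 0.10 ± 0.34 on the log2 scale was positive in replicates 1 and 4 and negative in replicates 2 and 3, turned to -0.02 without replicate 4 and to -0.46 with the longest transcript length (exact sign-flip permutation test, two-sided p = 0.75). The Nck2 count is uncertain as well, since 12% of its words of 31 bases occur in transcripts of other genes, against 4.59% for Nck1.

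Skap1 and Fyb encode partner adaptors that pass receptor signals to integrins. Skap1 measured 98.9, 105, 98.4 and 96.2 TPM (99.7 ± 3.99), a narrow range, and its relative Skap2 averaged 3.01 ± 0.338 TPM, lower by 4.65 ± 0.13 on the log2 scale. Fyb measured 239, 228, 275 and 213 TPM (239 ± 26.5), with replicate 3 the highest.

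Among the effector enzymes, Rasgrp1 was the highest. It encodes a Ras activator that responds to diacylglycerol, and measured 241, 207, 246 and 219.6 TPM (229 ± 18.2). Sos1, the Ras activator carried by Grb2, measured 31.5, 29.3, 37.1 and 25.4 TPM (30.8 ± 4.89) and was lower in every library, Rasgrp1 minus Sos1 being 2.86 ± 0.16 on the log2 scale. Sos2, at 20.3, 26.8, 24.9 and 18.5 TPM, lay just under Sos1, by 0.43 ± 0.22, a difference that turned to -0.07 with the longest transcript length.

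Plcg1, the phospholipase that makes diacylglycerol and inositol trisphosphate, measured 168, 149, 213 and 138 TPM (167 ± 33.2), with replicate 3 well above the others. Its relative Plcg2, the form used by B and myeloid cells, averaged 0.269 ± 0.113 TPM on 45 fragments. Vav1, an exchange factor for small GTPases known from blood cells, measured 176, 159, 182 and 177 TPM (174 ± 9.99). The more widely used Vav2 and Vav3 averaged 5.84 ± 1.07 and 10.5 ± 0.847 TPM, lower by 4.68 ± 0.20 and 3.92 ± 0.16 on the log2 scale. Prkcq, the protein kinase C form recruited to the T cell synapse, measured 136, 132, 153 and 141 TPM (140.2 ± 9.08) and exceeded Prkcb, the form of B cell receptor signalling, at 41.6 ± 2.4 TPM, by 1.73 ± 0.16.

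Prkcq acts through Bcl10 and Malt1 to activate NF-kappa B. Bcl10 measured 180.4, 202, 191 and 177 TPM (188 ± 11.5), and replicate 2 was the highest. Malt1 measured 299, 212, 282 and 295 TPM (272 ± 40.8), and there replicate 2 was the lowest. The ratio of the highest to the lowest library, on counts scaled by the trimmed mean of M-values (TMM), which sets most genes level between libraries, was 1.19 for Bcl10 and 1.41 for Malt1.

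**Figure D2:**
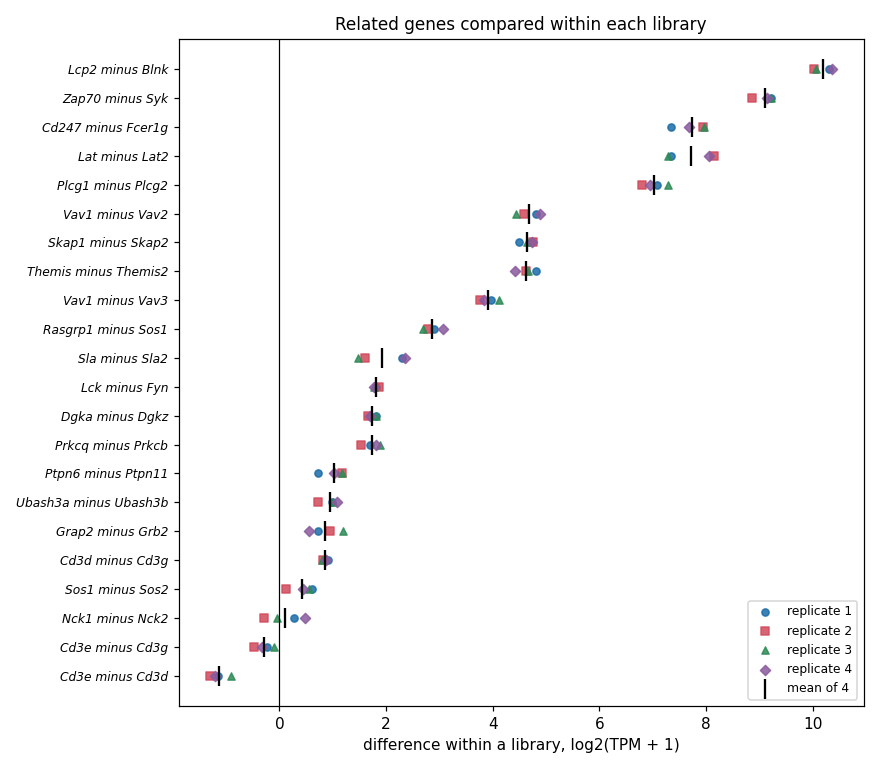
Difference in log2(TPM + 1) between the first and the second gene of 22 of the 23 related pairs, within each of the 4 libraries; symbols mark the replicates, black ticks the means and the vertical line no difference. All 4 points lie right of the line for 19 pairs and left of it for 2, and Nck1 minus Nck2 straddles it.

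Over all 23 pairs, the first gene was higher in 4 of 4 libraries for 19 and the second for 3, leaving Nck1 and Nck2 mixed. Each of the 22 pairs with a fixed sign had the smallest two-sided p that an exact sign-flip permutation of 4 libraries allows, 0.131 after Benjamini-Hochberg adjustment over the pairs, so none could pass 0.05. The widest gaps were to Blnk, Syk, Fcer1g, Lat2 and Plcg2, genes known mainly from other blood lineages, at 10.19, 9.11, 7.74, 7.71 and 7.03 on the log2(TPM + 1) scale. Among the genes of that kind the gaps to Themis2, 4.63, and to Prkcb, 1.73, were narrower. Apart from Lat2 and Prkcb these partners lie under 1 TPM, so the pseudocount sets the size of their gaps: with 0.1 in place of 1 the gaps to Blnk, Syk, Fcer1g, Lat2 and Plcg2 were 13.37, 11.78, 9.93, 8.08 and 8.86.

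Ptprc, Ptpn22 and Ptpn6 are the tyrosine phosphatases of the list. Ptprc encodes CD45, which removes the inhibitory phosphate from Lck, and measured 742, 636, 686 and 696 TPM (690.0 ± 43.2). It took the most fragments of any gene on the list, spread over 18313 exon bases, while its longest annotated transcript has 5740 bases. Ptpn22, which inactivates Lck and Zap70, measured 304, 229.7, 248 and 294 TPM (269 ± 35.7), higher in replicates 1 and 4. Ptpn6, the inhibitory phosphatase SHP-1, measured 110.3, 137, 136 and 127 TPM (128 ± 12.4), lowest in replicate 1. It exceeded its relative Ptpn11, at 66.5, 59.8, 59.8 and 61.8 TPM, by 1.03 ± 0.22 on the log2 scale, which turned to -0.38 without length division.

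The inhibitory adaptors and the Sts proteins formed the lowest group, none reaching 100 TPM. Sla encodes an adaptor that helps Cbl remove receptor complexes from the surface, and it measured 75.4, 50.5, 53.5 and 75.1 TPM (63.6 ± 13.5). Replicates 1 and 4 were nearly equal and lay above replicates 2 and 3, with no overlap. Its relative Sla2 measured 14.6, 16, 18.6 and 13.9 TPM (15.8 ± 2.08), highest in replicate 3, and was lower than Sla by 1.93 ± 0.46. Ubash3a and Ubash3b encode the Sts proteins, which restrain the receptor-proximal kinases. Ubash3a measured 32.3, 29.7, 39.9 and 29.8 TPM (32.9 ± 4.81). Ubash3b measured 15.7, 17.6, 19.3 and 13.5 TPM (16.6 ± 2.48). Ubash3a was the higher by 0.95 ± 0.16 on the log2 scale, but the sign depended on length, at -0.38 with the longest transcript and -0.14 with no length division. The longest Ubash3a transcript (7635 bases) is longer than the exons counted for it (3328 bases), so the first of these divides by bases that were not counted.

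Dgka and Dgkz encode kinases that consume diacylglycerol and so limit Rasgrp1 and Prkcq. Dgka measured 443, 504, 595 and 405 TPM (487 ± 83.2), with replicates 2 and 3 above replicates 1 and 4. Dgkz measured 126, 158, 169.6 and 124 TPM (144 ± 22.8), in the same arrangement of libraries. Dgka exceeded Dgkz by 1.74 ± 0.07 on the log2 scale, a difference that moved little between libraries.

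Cd2, the adhesion receptor for CD48, was the highest gene of the list at 1579, 1609, 1438 and 1661 TPM (1572 ± 95.3), replicate 3 being the lowest. Thy1, a lipid-anchored glycoprotein of mouse T cells, measured 269, 329, 306 and 289.8 TPM (298 ± 25.7). Pag1, the membrane adaptor that anchors Csk, measured 91.4, 102, 116 and 83.4 TPM (98.1 ± 14). Sit1, a transmembrane adaptor that restrains receptor signals, measured 28.4, 27, 32.6 and 24.7 TPM (28.2 ± 3.33). Pag1 and Sit1 had their highest value in replicate 3 and their lowest in replicate 4, and Cd2 showed the reverse.

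Variation between the libraries was narrow for most of these genes. With edgeR, 1 of the 38 genes, Lime1, varied beyond the trend for genes of its abundance (Benjamini-Hochberg adjusted p under 0.05 over all genes tested), against 0.813% of the 11567 genes tested, 94 in all. At an unadjusted p under 0.05 it was 2 of 38, Lime1 and Sla, against 5.98% of tested genes. On TMM-scaled CPM, counts scaled to the library total, the ratio of the highest to the lowest library had a median of 1.22 over the 38 genes and of 1.33 over tested genes. Much of that gap goes with abundance: the median was 1.26 over the 7360 tested genes with a mean of at least 10 TMM-scaled CPM and stayed 1.22 over the 37 listed genes above that level. It was under 1.5 for 36 of 38 genes, against 89% of those 7360.

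On this scale Cd3e was the steadiest, with a ratio of 1.06, followed by Grb2 at 1.08 and Prkcq at 1.09. In TPM the order differed, with Fyn the steadiest at 1.03 and Cd3e at 1.19. After Lime1, at 4.47, the widest were Sla at 1.6, Grap2 at 1.46, Malt1 at 1.41, Lcp2 at 1.38 and Plcg1 at 1.36. Sla and Grap2 did not pass the test (edgeR, Benjamini-Hochberg adjusted p = 0.47 and 1).

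**Figure D3:**
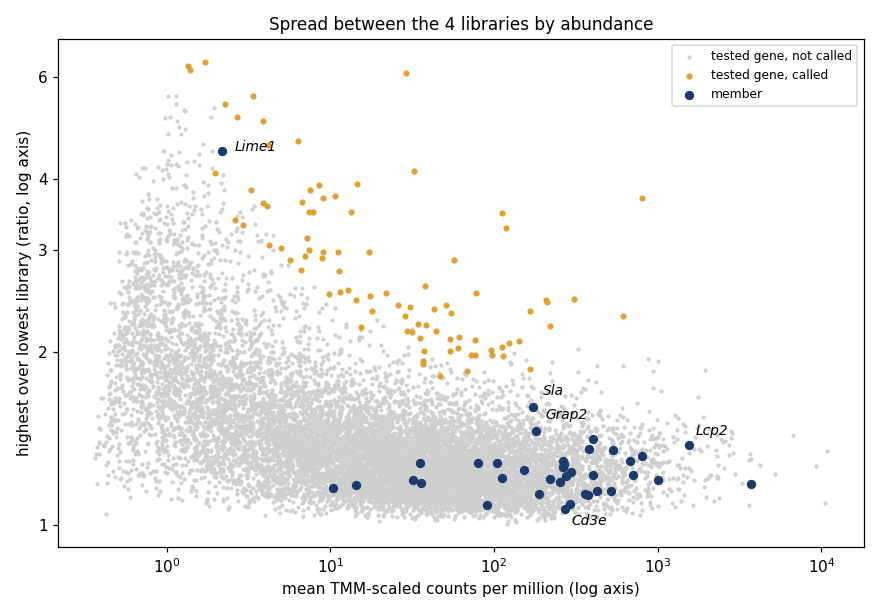
Ratio of the highest to the lowest of the 4 libraries (log axis) against mean TMM-scaled CPM (log axis) for each tested gene, with called genes in orange and the 38 genes in dark blue. Most of the 38 lie under a ratio of 1.5 in the bulk of genes of like abundance, Sla lies just above it at 1.6, and Lime1 lies apart at 4.47.

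Which library was highest depended on the scale. In TPM, replicate 3 was the highest for 20 of 38 genes, close to the 50.2% of tested genes for which it was the highest. On TMM-scaled counts it was the highest for 12 of 38 and the lowest for 14, against 30.3% and 31.9% of tested genes. The raised TPM values of replicate 3 for Txk, Grap2, Plcg1 and Dgka above went with the highest TMM-scaled value as well, whereas on that scale Rasgrp1 was highest in replicate 1 and Prkcq in replicate 4.

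**Figure D4:**
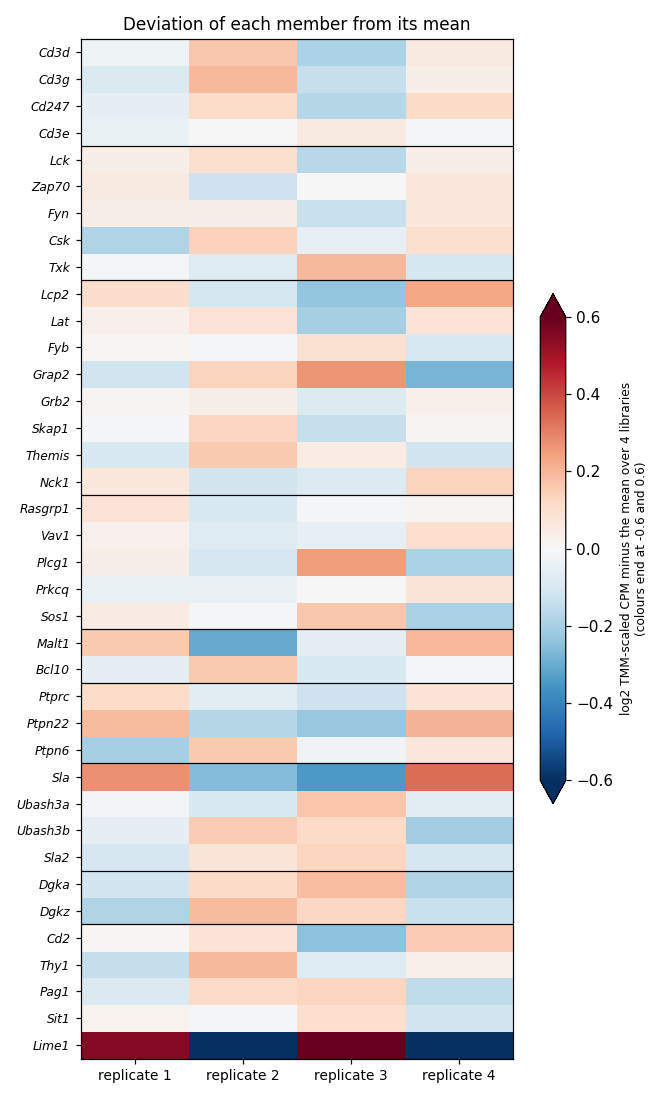
Deviation of each gene from its own mean over the 4 libraries (log2 TMM-scaled CPM), red above and blue below the mean, with colours ending at -0.6 and 0.6 and black lines between the role groups. Sla, Ptpn22, Malt1 and Lcp2 are red in replicates 1 and 4, Dgka and Dgkz are red in replicates 2 and 3, and Lime1 is red in replicates 1 and 3 with values past the ends of the colour scale.

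Lime1, which encodes a transmembrane adaptor that binds Lck, was the gene of the list that varied most. With all its exons as length it was also the lowest. It had 95, 36, 112 and 29 fragments, that is 3.92, 1.28, 6.42 and 1.63 TPM (3.31 ± 2.38). Replicates 1 and 3 lay above replicates 2 and 4 with no overlap. The edgeR deviance test gave an adjusted p = 0.025. The call was lost without replicate 2, 3 or 4 (edgeR adjusted p = 0.31, 0.45 and 0.091), with no expression filter (edgeR adjusted p = 0.051) and with the DESeq2 trend (adjusted p = 0.065).

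The counted Lime1 signal came from a small piece of the gene. Lime1 lies at chr2:181380078-181383628 (mm10, plus strand), inside the 3′ region of Zgpat, a gene on the same strand at chr2:181364928-181383628. Of the 2304 exon bases of Lime1, 2132 (92.5%) are also exon bases of Zgpat. Fragments that touched shared bases alone matched both genes and were not assigned to either. The remaining 172 bases lie in a single stretch, chr2:181382315-181382486. In GENCODE release M21 this stretch is exactly an intron of 2 protein coding Lime1 transcripts, Lime1-201 and Lime1-202, and of 2 Zgpat transcripts, Zgpat-203 and Zgpat-204, and it is kept as exon in the retained-intron transcript Lime1-207. It is shown because each fragment assigned to Lime1 had to touch it; capitals mark its first and last 2 bases, the GT and AG of the intron ends, on the plus strand (sequence from the M21 transcripts, GRCm38).
Lime1 stretch: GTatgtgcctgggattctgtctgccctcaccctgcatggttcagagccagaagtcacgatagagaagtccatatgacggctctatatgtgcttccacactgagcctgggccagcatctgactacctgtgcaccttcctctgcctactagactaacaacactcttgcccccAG
The Lime1 level is therefore uncertain in both directions. Fragments of Lime1-201 and Lime1-202 with this stretch spliced out could not be assigned to Lime1, so neither length gives the level of these transcripts. Whether the counted fragments came from Lime1 or from unspliced Zgpat RNA was not tested. With these 172 bases as the length, the counted signal was 52.5, 17.1, 86 and 21.8 TPM (44.4 ± 31.9), again with replicates 1 and 3 the highest. That mean lies above those of Ubash3a, Themis, Sos1, Sit1, Nck1, Ubash3b and Sla2, so the rank of Lime1 depended on the length.

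**Figure D5:**
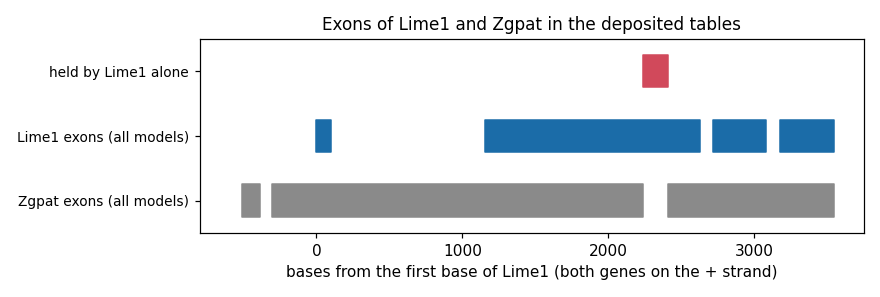
Exons of Lime1 and Zgpat, drawn to scale in bases from the first base of Lime1, with the bases that Lime1 alone holds in red. The 172 bases held by Lime1 alone fill the gap between Zgpat exons, and all other Lime1 exon bases are also Zgpat exon bases.

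Some other genes, picked singly and not by a rule, had their higher values in the same libraries as Lime1. Zgpat measured 41.7, 32.2, 51.6 and 35.9 TPM. Slc2a4rg-ps, which begins downstream on the same strand, measured 32.9, 23.4, 46.3 and 23.3 TPM. Arfrp1, a neighbour on the opposite strand, measured 61, 45.6, 68.1 and 49.7 TPM. Malat1, a long RNA retained in the nucleus, measured 427, 209, 795 and 188 TPM, and Neat1, another nuclear RNA, 34.8, 26, 58.2 and 20.7 TPM. The myeloid marker Cd68 measured 12, 4.88, 17.1 and 7.72 TPM, while Lyz2 and Csf1r, other markers of that list, had 2 fragments each over the 4 libraries. Lat2 measured 4.46, 2.15, 4.28 and 2.32 TPM. In all but Lyz2 and Csf1r, replicates 1 and 3 were above replicates 2 and 4, as in Lime1. How many of all tested genes share this arrangement was not computed, and in TPM replicate 3 was the highest for 50.2% of them. The likeness of picked genes to Lime1 can therefore not be weighed. Malat1 and Neat1 varied beyond the trend (edgeR adjusted p = 5.5e-10 and 0.0028), whereas Zgpat, Slc2a4rg-ps, Cd68 and Lat2 did not pass the test (edgeR adjusted p = 1, 0.31, 0.17 and 1). Arfrp1 did not pass the test either. The part of these genes in the Lime1 result was not tested.

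Other genes of the pathway were read from 3 lists, to be set beside the 0.813% of all tested genes that varied beyond the trend and the 5.98% with an unadjusted p under 0.05. Of 9 receptor and coreceptor genes, 8 reached 1 TPM and none of the 8 tested varied beyond the trend with edgeR, nor at an unadjusted p under 0.05 (0 of 8), a number too small to set apart from those shares. Trac, the alpha chain constant region, was the highest of them at 3565 ± 251 TPM, followed by Trbc2 at 1274 ± 123 TPM, whose count is uncertain because it shares sequence with Trbc1. Cd8a, the alpha chain of the CD8 coreceptor, averaged 0.216 TPM on 32 fragments, while Cd8b1 averaged 27 ± 4.86 TPM.

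Of 32 further signalling genes, 30 reached 1 TPM, and 1 of 31 tested varied beyond the trend with edgeR, against 0.813% of all tested genes, while 2 of 31 had an unadjusted p under 0.05, against 5.98%. The gene that varied was Cblb, a ubiquitin ligase that restrains receptor signalling, at 417, 203, 242 and 461 TPM (edgeR adjusted p = 0.0011). Replicates 1 and 4 lay above replicates 2 and 3, as in TPM for Sla, Ptpn22, Malt1, Lcp2, Ptprc, Nck1 and Fyn among the 38 genes. The share of all tested genes with this arrangement was not computed, so these genes cannot be read as a set that varies together. None of them varied beyond the trend, and Fyn has the arrangement only by 333 TPM in replicate 4 against 332 TPM in replicate 2. The Cblb call was lost without replicate 2 or replicate 4 (edgeR adjusted p = 0.06 and 0.093). Sh2d2a, an adaptor that binds Lck, was among the highest of this list at 462 ± 33.1 TPM, and Gab2, with 1 fragment, and Ptprj, at 0.699 ± 0.0888 TPM, were the lowest.

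Of 14 counterparts from other lineages, 4 reached 1 TPM. The highest were Prkcb and Lat2, and the lowest were Blnk and Blk, a Src family kinase of B cells, with 3 and 2 fragments over the 4 libraries. None of the 3 tested genes varied beyond the trend with edgeR, and none had an unadjusted p under 0.05, against 0.813% and 5.98% of all tested genes. The median over this list was 0.197 TPM, against 181 TPM over the 38 genes.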

How the data were processed

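Gene-level RNA sequencing counts of 4 libraries from Th17 cells, 1 group, were analysed. The authors deposited whole fragment counts for each gene. Per the file headers these were made by featureCounts 1.4.6-p4 from exons of GENCODE M13 (mm10), with read pairs taken as fragments, both ends required to map and reverse strandedness (option 2). A fragment that aligned to several places or touched several genes was left out, so genes that overlap on a strand, or have near copies, lose counts. The sources used here do not give the aligner version.

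TPM were computed from the counts and the union exon length, which was deposited in the same tables by the authors. Symbols came from GENCODE M21 (50376 of 50600 identifiers matched). Total counts were 36298276, 40652146, 26953724 and 25847970 in replicates 1 to 4. A count of 0 allows up to 3 counts, 0.0826, 0.0738, 0.111 and 0.116 CPM (counts scaled to the library total), covering counting error only. Between any 2 libraries chi-square divided by its degrees of freedom was 11.5 or more, so none was a duplicate.

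Variation was tested with edgeR 4.0.16 in R 4.3.3: intercept only, expression filter (11567 genes), TMM, and the deviance at the trended dispersion against chi-square with 3 degrees of freedom, Benjamini-Hochberg adjusted, threshold 0.05. With 1 group no coefficient was tested. The 23 gene pairs were compared within libraries on log2(TPM + 1) by exact permutation of signs, two-sided. Alternatives were DESeq2 1.42.0 size factors and trend, library totals, common dispersion, no filter, the longest M21 transcript as length, no length division, a pseudocount of 0.1, FPKM on TMM sizes, and leaving out each library. The length of 172 bases for Lime1 and the pairs as FPKM were added after seeing the data. Python 3.11.15, numpy 2.4.6, pandas 2.3.3 and matplotlib 3.10.9 were used. Promoter windows are from RefSeq, GRCm38.p6.

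All listed genes are named, with every library's value for those that varied, the extremes of level and spread and the pairs described, and the 2 highest and 2 lowest genes of each pathway list. The 38 genes, pairs and lists were chosen with earlier results of these data known. A few genes of these lists, and 1 pair, are not reported here.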

Additional observations from a re-analysis of the deposited data

Results flagged for a closer look

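In 3 genes a single library stood apart by the ratio of its gap to the whole range over the 4 libraries, past Dixon's critical value for 4 libraries. Cd3e in replicate 3 had 254 TPM, against 214 to 219 TPM in the others, a ratio of 0.862. That gap was present in TPM, in which replicate 3 was the highest library for 50.2% of tested genes, while on TMM-scaled CPM the highest Cd3e library was 1.06 times the lowest. Fyn in replicate 1 had 343 TPM, against 331 to 333 TPM in the others, a ratio of 0.853. Nck1 in replicate 2 had 22.7 TPM, against 26 to 26.5 TPM in the others, a ratio of 0.879. Of 75 values checked, 4% were marked, and chance marks about 1 in 20.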

How the results depend on the processing

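Pair differences, counts of genes and the median level were recomputed under the alternatives. Of these values 194 were classed as kept, 12 as moved and 10 as reversed. A pair difference was classed as kept unless its sign turned, whatever its size. Cd3d minus Cd3g, 0.85 on the log2 scale in TPM and 0.00 with no length division, was therefore among those kept. For counts of genes and the median level, small shifts were classed as kept. An example is the number of listed genes at 1 TPM or more, 38 in TPM and 37 as FPKM on TMM sizes. With the longest transcript as length, 5 pair differences reversed (log2): Cd3e minus Cd3g to 0.02, Grap2 minus Grb2 to -0.04, Sos1 minus Sos2 to -0.07, Nck1 minus Nck2 to -0.46 and Ubash3a minus Ubash3b to -0.38. With no length division 4 reversed: Cd3e minus Cd3d to 0.03, Cd3e minus Cd3g to 0.03, Ptpn6 minus Ptpn11 to -0.38 and Ubash3a minus Ubash3b to -0.14. Nck1 minus Nck2 was -0.02 to 0.24 when a library was left out, lowest without replicate 4. The median log2 level of the 38 genes was 7.64 with the longest transcript and 5.74 as FPKM on TMM sizes, which are not scaled to the same total. Genes of the list called as varying numbered 0 with no filter, 0 with the DESeq2 trend, and 0 to 1 when a library was left out. All genes called numbered 256 with the common dispersion and 35 to 60 without a library. The causes were not tested. With the longest transcript 27 of 38 mean levels moved by more than their SD, from 0.353 times (Ubash3a) to 2.89 times (Skap1). For Ubash3a, Grap2 and Malt1 that length includes bases in which no fragments were counted. Depth limits Lime1, with 272 fragments in all. No paired comparison of conditions was possible because there is 1 group.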
